A study of Homo sapiens with 6 samples.

Results

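Matrix metalloproteinases (MMPs), ADAMs and ADAMTSs are zinc-dependent proteases that cut proteins at and outside the cell surface, and the tissue inhibitors of metalloproteinases (TIMPs) block them. This account covers 77 genes of these families among the 27754 genes counted in T47D breast cancer cells, taken by symbol alone: 25 ADAM, 19 ADAMTS, 5 ADAMTS-like (ADAMTSL), 24 MMP and 4 TIMP genes. A gene was taken as detected at a mean of at least 10 counts over the 6 libraries, and 45 genes met this. T47D is a human breast cancer cell line of luminal type. RNA sequencing compared 3 libraries of cells kept under normal culture conditions at 20% O2 (normoxia) with 3 libraries of cells kept for 48 h in a chamber labelled 0.5% O2 (hypoxia), and the text of the study gives a different O2 level for the chamber. All cells were grown in RPMI medium with serum and carried no other treatment, and a single line stands for each condition.

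As background, most MMPs are secreted as inactive precursors and digest collagens and other matrix proteins, while membrane-type MMPs stay on the cell surface. ADAMs are membrane proteins that release the outer parts of growth factors, receptors and adhesion molecules, although some have lost the catalytic site. ADAMTSs are secreted and act on proteoglycans, procollagens, fibrillin microfibrils or von Willebrand factor, and ADAMTSL proteins resemble them without the protease part. In tumor tissue, much MMP expression comes from stromal cells, and low O2 is known to alter several of these genes.

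The 6 libraries held between 32989104 and 89883409 counts, of which between 0.115% and 0.141% fell on the 77 genes. At these depths 3 counts equal between 0.0334 and 0.0909 CPM (counts scaled to the size of the library), a floor that covers counting error only. Luminal epithelial markers (KRT8, KRT18, KRT19, EPCAM, ESR1, GATA3 and FOXA1) summed to between 9184 and 16606 CPM in every library. Among them ESR1, GATA3 and FOXA1 were lower in hypoxia (log2 changes of -1.86, -0.74 and -0.55, adjusted p = 2.06e-05, 3.20e-04 and 0.00177). KRT8 and KRT18 were called lower with the replicate number as a block (-0.51 and -0.35, adjusted p = 7.55e-05 and 0.00107), and without it were not (0.0684 and 0.137). The 4 immune markers summed to 1.84 to 2.34 CPM in normoxia and 7.31 to 8.94 CPM in hypoxia. CD68, known from macrophages, had 31 to 62 counts in normoxia and 256 to 558 in hypoxia (2.36, adjusted p = 1.63e-04), while PTPRC, which marks leukocytes, never exceeded 5 counts and CD3E never exceeded 10. CD14, the remaining immune marker, had 27, 25 and 26 counts in normoxia and 34, 33 and 166 in hypoxia. It was not called (0.74, adjusted p = 0.104), but was called higher with the replicate block (0.65, adjusted p = 0.0496). The 3 endothelial markers summed to at most 0.514 CPM, with CDH5 at 0, 0 and 8 counts against 12, 6 and 32, and PECAM1 at no more than 5. The part of these markers in the changes of the metalloproteinase genes was not tested. Of the 6 fibroblast markers, COL1A1 had 2814 to 9062 counts, PDGFRA had 0 counts in every library and the other 4 had at most 14. Replicate 3 of both conditions stood apart from the other libraries on the principal component holding 10.4% of the variance. The 6 mesenchymal or basal-like markers (VIM, CAV1, CAV2, MSN, AXL and SPARC) summed to 21.5 CPM in normoxia replicate 3 against 2.84 and 4.43 CPM in normoxia replicates 1 and 2. In hypoxia the sum was 29.6 CPM in replicate 3 against 13.5 and 17.9 CPM in replicates 1 and 2. AXL was the marker of this list called higher in hypoxia without the replicate block (1.97, adjusted p = 2.33e-04). CAV1 was called higher with the block (1.38, adjusted p = 0.0411), and without it was not (1.33, adjusted p = 0.391). The study describes its data as independent experiments, while the labels do not say how the replicates were grown, and p-values measure the spread between these libraries. In such bulk libraries, fewer cells that express a gene and less RNA per cell cannot be told apart.

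The 45 detected genes comprised 13 ADAMs, 13 ADAMTSs, 3 ADAMTSLs, 13 MMPs and 3 TIMPs. Of the other 32 genes, 10 had 0 counts in every library: ADAM29, ADAM30, ADAM3A, ADAM3B, ADAM5, ADAM6, ADAM7, ADAMTS18, MMP26 and MMP27. A further 15 had a highest count of 1 to 6, among them the interstitial collagenases MMP1 and MMP8, the stromelysin MMP3, the macrophage elastase MMP12, the aggrecanase ADAMTS5 and TIMP4. The values closest to the threshold were those of MMP2 (mean of 11 counts), ADAM33 (11.5) and ADAMTS17 (11.7) inside it, and of ADAMTS8 (9.17), ADAM20 (8.83) and MMP10 (7.83) outside it.

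Levels between genes were compared per kilobase of counted exon, as RPKM. The 5 most abundant members in normoxia were ADAM15, ADAM9, ADAM10, TIMP2 and MMP17, which held 82.8% of the summed RPKM of the 77 genes in normoxia and 74.5% in hypoxia. ADAM15, a disintegrin protease with an integrin-binding motif, was at 147 ± 23.7 RPKM in normoxia and 90.1 ± 24.6 RPKM in hypoxia (SD, n = 3 in each). ADAM9, a widely expressed sheddase, followed at 60.6 ± 1.82 and 80.8 ± 14.7 RPKM. In hypoxia the levels of these 2 genes lay within 1 SD of each other. In each condition 19 members exceeded 1 RPKM, among them MMP16 in normoxia (1.31 RPKM, and 0.814 RPKM in hypoxia) and MMP13 in hypoxia (1.06 RPKM, and 0.0110 RPKM in normoxia). The plot of levels per kilobase shows the ADAMs at the top and most strongly changed genes at its low end.

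**Figure D1:**
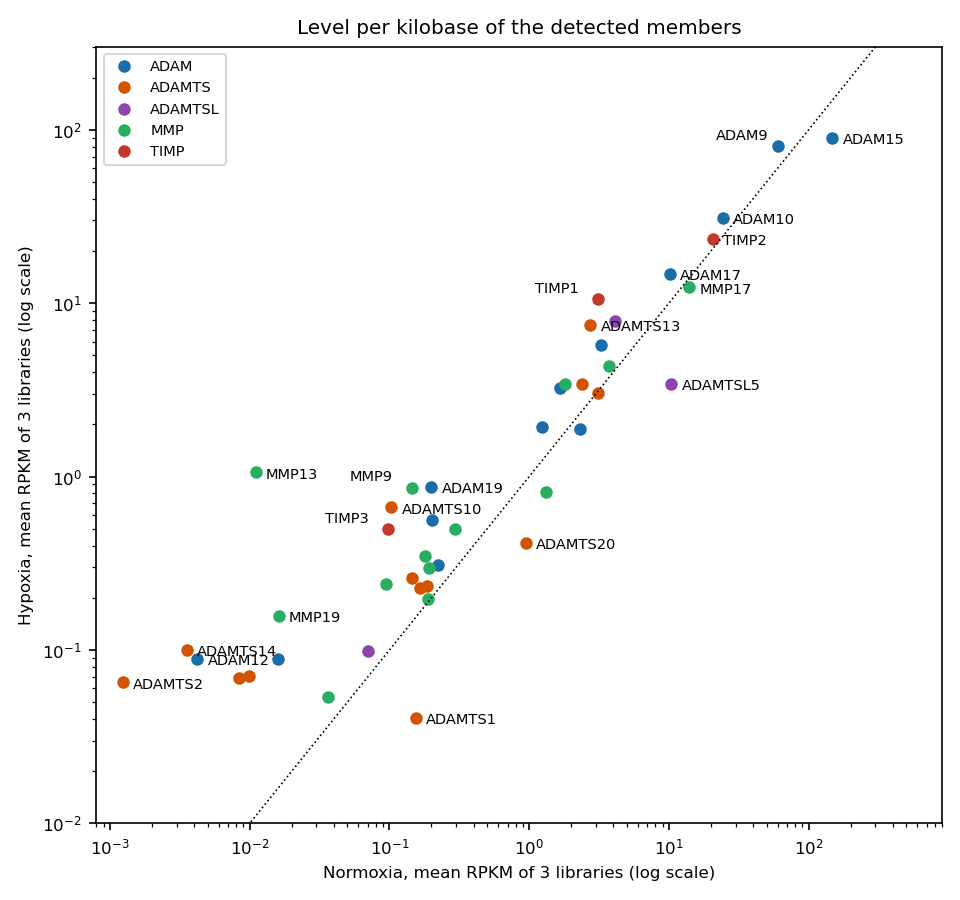
Mean RPKM of each of the 45 detected members in normoxia (x axis) and hypoxia (y axis), both on log scales and each a mean of 3 libraries, colored by family; the dotted line marks equal levels. ADAM15, ADAM9, ADAM10 and TIMP2 sit at the upper right, and MMP13, ADAMTS2, ADAMTS14 and ADAM12 lie far above the line at low normoxic levels.

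Of the 77 genes, 43 passed edgeR's filter on low counts and were tested. The detected genes MMP2 and ADAMTS17 did not pass, and their counts are given with their families. At an adjusted p under 0.05, 23 were higher in hypoxia (53.5% of those tested, where 30.4% of all 15657 tested genes were higher) and 4 were lower (9.30%, where 29.1% of all genes were lower). Past the same threshold, 14 members were higher by at least 1 on the log2 scale (15.2% of all tested genes were) and 3 were lower by at least 1 (4.91% of all tested genes were). The median log2 change of the 43 genes was 0.73, beside 0.03 over all genes. These counts include 7 genes (ADAM12, ADAM33, ADAMTS2, ADAMTS6, ADAMTS14, MMP13 and MMP19) that passed the filter with no normoxia library over 0.261 CPM and so could pass only by being higher in hypoxia. Among the 30 members over that level in all 6 libraries, 15 were higher and 3 lower, with a median of 0.53. Of all 14134 genes over it in every library, 26.8% were higher and 31.7% lower, with a median of -0.03.

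By family, 10 of 13 tested ADAMs were higher and 1 lower, and 6 of 12 tested ADAMTSs were higher and 2 lower. Over all tested genes 30.4% were higher and 29.1% lower. The higher ADAMs include ADAM12 and ADAM33, and the higher ADAMTSs include ADAMTS2, ADAMTS6 and ADAMTS14, which could come out only as higher. Of the 12 tested MMPs, 4 were higher and 8 were not called. These 4 include MMP13 and MMP19, which also could come out only as higher. Among the 3 tested TIMPs, TIMP1 and TIMP3 were higher, and the 3 tested ADAMTSLs had 1 higher and 1 lower. With the replicate number as a block, all 27 called members remained called and ADAMTS7, MMP17, MMP23B, MMP24 and MMP25 were added, giving 27 higher and 5 lower (71.8% of all genes were called in either direction in that fit).

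**Figure D2:**
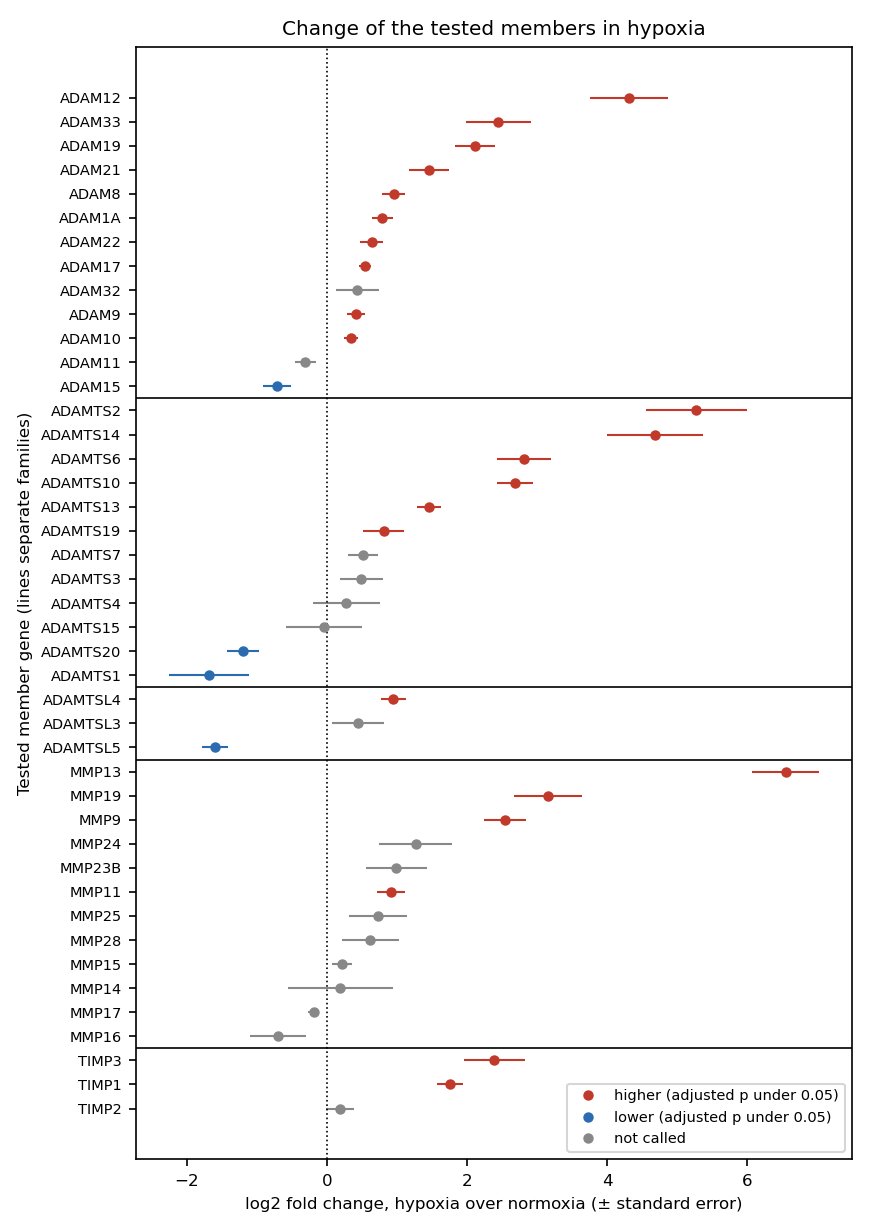
Log2 fold change of hypoxia over normoxia with its standard error for the 43 tested members, from edgeR's quasi-likelihood test on 3 libraries per condition; red marks genes called higher, blue genes called lower and grey genes not called at an adjusted p of 0.05. MMP13 has the largest increase (6.55), and ADAMTS1, ADAMTSL5, ADAMTS20 and ADAM15 are the genes called lower.

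MMP13, the secreted collagenase that digests fibrillar collagens, had the largest fitted change of the 43 tested members, an order that rests on few normoxia counts. Without normoxia replicate 2 it was at 5.97 on the log2 scale and ADAMTS2 at 7.48. It had 1, 0 and 2 counts in the normoxia libraries (replicates 1, 2 and 3, the order used throughout) and 136, 92 and 251 in the hypoxia libraries. The gene (chromosome 11, 102813721 to 102826463 in hg19, as are all gene positions here, which span the counted exons) went from at most 0.0646 CPM in normoxia to between 2.52 and 3.36 CPM in hypoxia. Its log2 change was 6.55 (standard error, SE, of 0.48, and an adjusted p of 6.62e-05 in the edgeR test named above). Because normoxia held 3 counts in all, the ratio of summed counts, corrected for library size, was 102 with a 95% counting interval of 34.7 to 496. The other 2 collagenases, MMP1 and MMP8, had at most 6 counts in any library.

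MMP9, the gelatinase that cleaves denatured and basement membrane collagen, also separated the conditions completely. It was at 0.405, 0.322 and 0.291 CPM in normoxia and at 2.59, 1.86 and 1.60 CPM in hypoxia, a log2 change of 2.54 (SE 0.30, adjusted p = 3.33e-04). Of its counted exon bases (chromosome 20, 44637547 to 44645200), 18.3% also belong to LOC100128028, and the strand setting of the counting is not given in the sources used here, so reads of the overlap may stem from either gene. MMP19 (chromosome 12, 56229214 to 56236767) rose by 3.16 (SE 0.49, adjusted p = 0.00108), from 2, 3 and 1 counts to 25, 23 and 33 counts. It shares 24.1% of its exon bases with TMEM198B, which carries the same uncertainty.

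MMP11, a stromelysin that convertases activate inside the cell, was expressed in every library. It rose from 4.31, 5.11 and 3.00 CPM in normoxia to 7.51, 7.44 and 8.56 CPM in hypoxia, a log2 change of 0.92 (SE 0.20, adjusted p = 0.00552). Without replicate 1 of both conditions the adjusted p was 0.0512 at a log2 change of 0.98. MMP10 and MMP7, a stromelysin and a matrilysin below the detection threshold, had 0, 1 and 0 counts and 0, 1 and 3 counts in normoxia, against 19, 7 and 20 counts and 6, 17 and 11 counts in hypoxia. When every gene with at least 1 count was tested, both were called higher (adjusted p = 0.00219 for MMP10 and 0.0487 for MMP7).

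The 6 membrane-type MMPs were all detected and tested, and 0 of them were called by edgeR's quasi-likelihood test (2 had an unadjusted p under 0.05). In that test 30.4% of all genes were higher and 29.1% lower. DESeq2 called MMP24 and MMP17, and edgeR's exact test called MMP24. With upper-quartile scaling MMP15 and MMP24 were called higher (log2 changes of 0.37 and 1.43, adjusted p = 0.0401 and 0.0492). MMP17, which is held in the membrane by a lipid anchor, was the most abundant, at 32.6, 34.3 and 34.6 CPM in normoxia and 29.3, 29.3 and 30.5 CPM in hypoxia. The groups did not overlap, yet the log2 change of -0.19 missed the threshold (SE 0.08, adjusted p = 0.0654) and passed it with the replicate block (adjusted p = 0.0279). With upper-quartile scaling the change of MMP17 was -0.029 (adjusted p = 0.760), and edgeR's exact test gave an adjusted p of 0.115. MMP15 had a log2 change of 0.22 (SE 0.14, adjusted p = 0.215). MMP24 and MMP25 had log2 changes of 1.27 and 0.73 (adjusted p = 0.0675 and 0.164), which passed with the replicate block (0.00823 and 0.0220). Antisense genes cover 15.4% of the exon bases of MMP24 and 14.2% of those of MMP25.

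MMP14, the membrane-type protease that activates the precursor of MMP2, followed the replicate number rather than the condition. Its counts were 8, 17 and 43 in normoxia and 17, 11 and 128 in hypoxia. In CPM, replicate 3 stood at 1.39 in normoxia and 1.40 in hypoxia, and the other 4 libraries lay between 0.203 and 0.457. The log2 change was 0.20 (SE 0.75, adjusted p = 0.835), and 0.16 without replicate 3 of both conditions (adjusted p = 0.773). MMP2, the second gelatinase, had 0, 0 and 14 counts in normoxia and 3, 3 and 46 counts in hypoxia, so that replicate 3 held most of its counts in each condition. VIM moved with both genes, with 7, 12 and 395 counts in normoxia and 35, 35 and 1001 counts in hypoxia. CAV1, CAV2, MSN and SPARC were also highest in replicate 3 of each condition. AXL, the remaining marker of the list, was at 2.53, 3.90 and 4.01 CPM in normoxia. In hypoxia AXL was at 11.5, 15.9 and 13.4 CPM, highest in replicate 2. The part of these markers in the MMP14 and MMP2 counts was not tested.

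**Figure D3:**
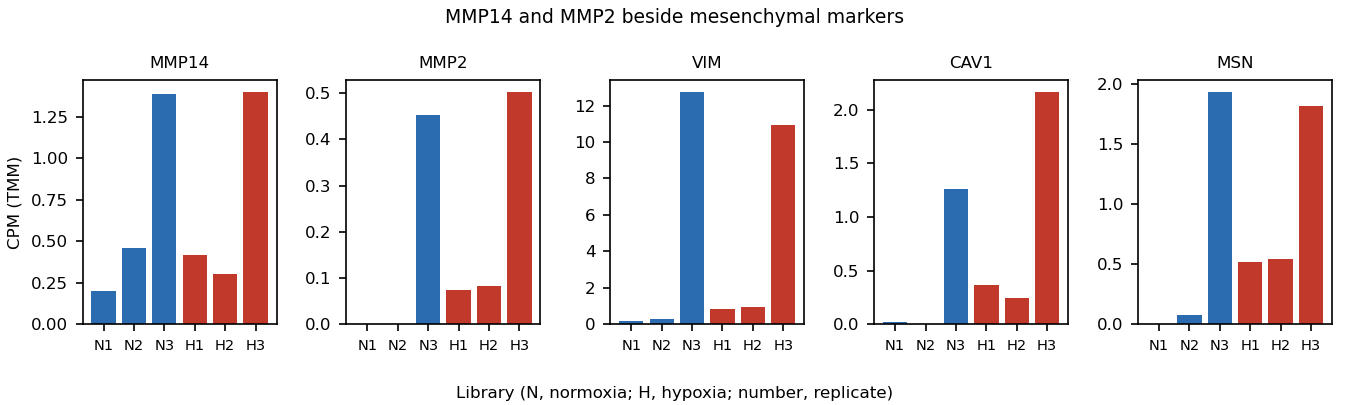
CPM of MMP14, MMP2 and the mesenchymal markers VIM, CAV1 and MSN in each library (N, normoxia in blue; H, hypoxia in red; numbers are replicates; each bar is 1 library). The bars of replicate 3 are the tallest of each condition for all 5 genes. The other markers of the list, CAV2, AXL and SPARC, are not shown, and AXL was highest in replicate 2 in hypoxia.

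MMP16 showed the opposite pattern in normoxia, where replicate 3 was low. This membrane-type MMP was at 12.7, 8.76 and 3.39 CPM in normoxia and 5.53, 4.76 and 5.17 CPM in hypoxia, so the groups overlapped through normoxia replicate 3. Its log2 change was -0.69 (SE 0.40, adjusted p = 0.164), -1.07 without normoxia replicate 3 (adjusted p = 0.00225) and -1.06 without replicate 3 of both conditions (adjusted p = 6.54e-05). MMP28 was not called, with a log2 change of 0.62. MMP23B, with 5 to 51 counts, had a log2 change of 1.00 (adjusted p = 0.0774, or 0.0365 when blocked on replicate number and 0.0462 with upper-quartile scaling). Of its exon bases, 72.8% are shared with its near-identical neighbor MMP23A, so its count is uncertain.

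ADAM10 and ADAM17 are the main sheddases of the cell surface, and ADAM10 also makes the first cut that releases Notch signaling while ADAM17 releases TNF and ligands of the EGF receptor. ADAM17 (chromosome 2, 9628615 to 9695949) was at 46.9, 43.0 and 43.5 CPM in normoxia and 68.0, 67.5 and 59.2 CPM in hypoxia. All 3 hypoxia libraries lay above all normoxia libraries, with a log2 change of 0.55 (SE 0.09, adjusted p = 0.00129). ADAM10 (chromosome 15, 58887403 to 59042177) was at 131, 132 and 103 CPM in normoxia and 158, 158 and 150 CPM in hypoxia, a log2 change of 0.35 (SE 0.10, adjusted p = 0.0213). The call of ADAM10 was lost at a similar log2 change of 0.33 without hypoxia replicate 1 or hypoxia replicate 2 (adjusted p = 0.0704 and 0.0641), and at 0.39 without replicate 1 or replicate 2 of both conditions (0.109 and 0.0666). It was the smallest change called among the members.

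ADAM15 and ADAM9, the most abundant members, moved in opposite directions. ADAM15 (chromosome 1, 155023748 to 155035252) fell from 472, 445 and 597 CPM in normoxia to 271, 250 and 405 CPM in hypoxia. Replicate 3 was the highest library of each condition, and the lowest normoxia library lay above the highest hypoxia library. The log2 change was -0.71 (SE 0.19, adjusted p = 0.0142), and the adjusted p was 0.0547 without hypoxia replicate 1 and 0.0860 without replicate 1 of both conditions. ADAM9 (chromosome 8, 38854505 to 38962779) rose from 240, 255 and 249 CPM to 305, 288 and 400 CPM, a log2 change of 0.42 (SE 0.12, adjusted p = 0.0206). Here hypoxia replicate 3 set part of the size, since the log2 change was 0.25 without it (adjusted p = 0.0138), and 0.38 without normoxia replicate 1 (adjusted p = 0.0692) and 0.45 without replicate 1 of both conditions (adjusted p = 0.101).

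The largest increases among the ADAMs were those of ADAM12, ADAM33, ADAM19 and ADAM21. ADAM12, a protease known for cleaving insulin-like growth factor binding proteins, had 0, 3 and 1 counts in normoxia and 35, 27 and 71 counts in hypoxia. This corresponded to a log2 change of 4.32 (SE 0.56, adjusted p = 5.21e-04) and to a ratio of 21.2 with a 95% counting interval of 8.11 to 79.1. ADAM19 (chromosome 5, 156904312 to 157002831), a relative of ADAM12 that can cleave neuregulin, was at 1.82, 1.32 and 0.743 CPM in normoxia and 5.24, 5.82 and 6.03 CPM in hypoxia. Its log2 change was 2.12 (SE 0.29, adjusted p = 6.30e-04). ADAM33 and ADAM21 stayed at low levels, with 1, 4 and 2 counts against 14, 14 and 34 counts and with 20, 27 and 12 counts against 53, 54 and 156 counts. Their log2 changes were 2.45 and 1.46 (adjusted p = 0.00278 and 0.00307).

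Smaller increases were called for ADAM8, ADAM1A and ADAM22. ADAM8, a sheddase best known from leukocytes, rose from 5.51 ± 0.891 to 10.7 ± 1.35 CPM (SD, n = 3), a log2 change of 0.96 (adjusted p = 0.00179). ADAM1A, a pseudogene in humans that is still transcribed, and ADAM22, a non-catalytic receptor, had log2 changes of 0.79 and 0.64 (adjusted p = 0.00314 and 0.0122), and the adjusted p of ADAM22 was 0.0773 without replicate 1 of both conditions. The non-catalytic ADAM11 had a log2 change of -0.30 (adjusted p = 0.111), which was -0.47 without replicate 3 of both conditions (adjusted p = 0.00314). ADAM32 was not called (0.44, adjusted p = 0.242). ADAM28, below the detection threshold, had 0 counts in all normoxia libraries and 6, 7 and 23 counts in hypoxia, and was at least 7.67-fold higher against a floor of 3 counts over the normoxia group (adjusted p = 0.00232 when genes under the filter were included).

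**Figure D4:**
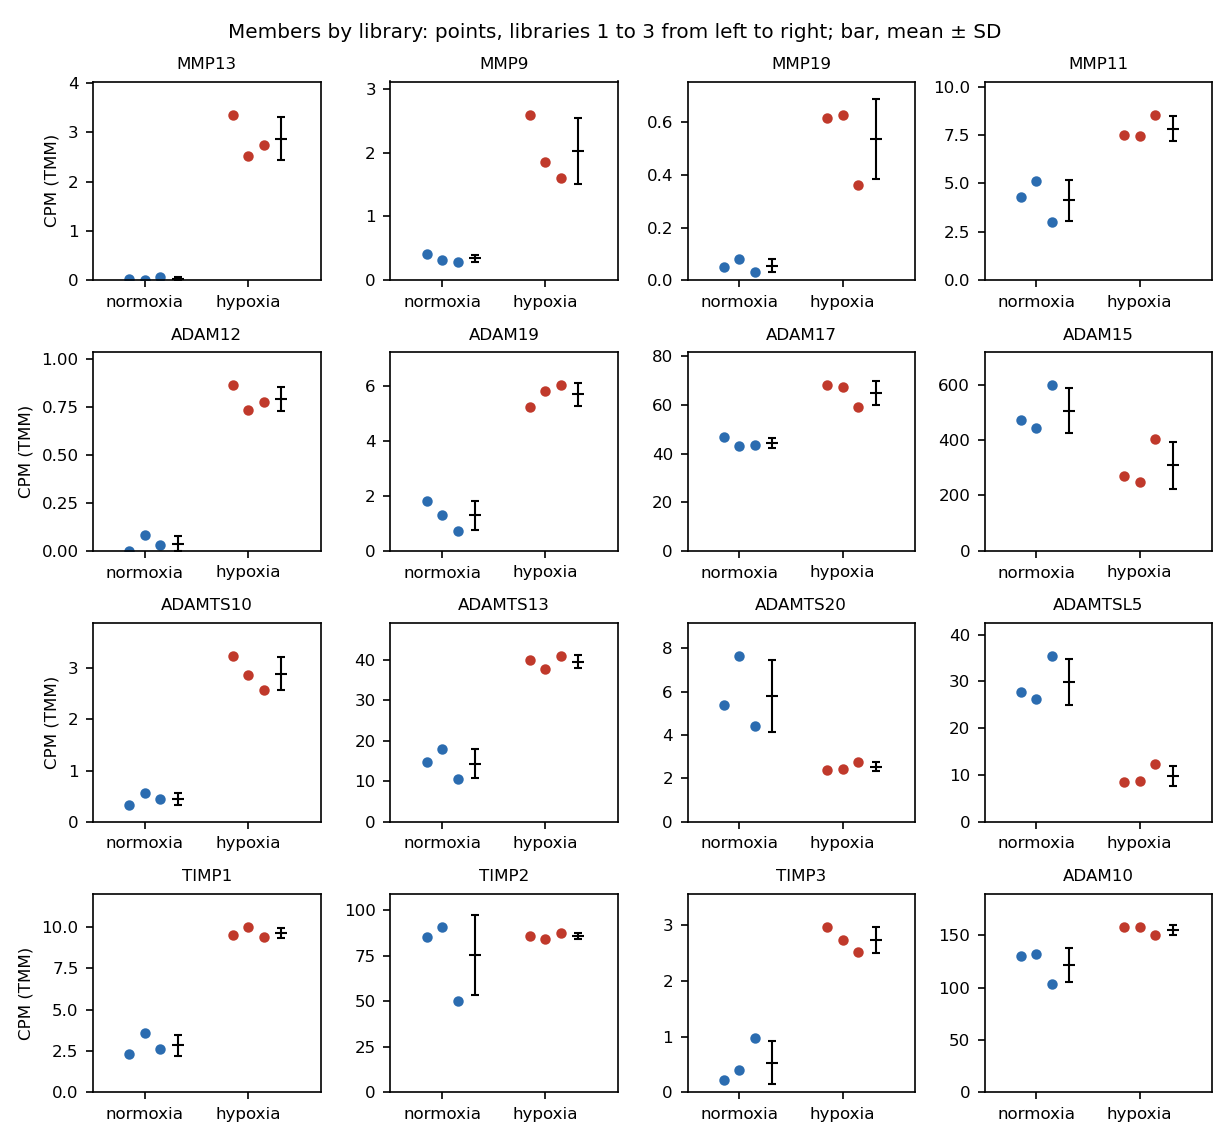
CPM after TMM normalization of 16 members in the 3 normoxia libraries (blue) and 3 hypoxia libraries (red), replicates 1 to 3 from left to right, with the mean ± SD as a bar; each panel has its own linear scale from 0. The groups are apart in every panel except that of TIMP2, where normoxia replicate 3 lies at 49.9 CPM and the other 5 libraries between 84.1 and 90.8 CPM. These panels were picked with their values known. Other members whose groups overlap, among them MMP14, MMP15, MMP16 and ADAMTS15, are not shown. The share of all genes with groups apart is not given here.

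Among the ADAMTSs, ADAMTS2, ADAMTS14, ADAMTS6, ADAMTS10, ADAMTS13 and ADAMTS19 rose and ADAMTS20 and ADAMTS1 fell. For ADAMTS2, ADAMTS14 and ADAMTS6, which passed the filter through hypoxia alone, no other direction was possible. ADAMTS2 and ADAMTS14, which trim the ends of fibrillar procollagens, were almost absent in normoxia. ADAMTS2 had 0, 1 and 0 counts in normoxia and 16, 23 and 36 counts in hypoxia, a ratio of 47.9 with a 95% counting interval of 8.34 to 1918. ADAMTS14 had 0, 1 and 1 counts and 17, 30 and 40 counts, a ratio of 27.8 with an interval of 7.47 to 233. Both were called higher (log2 changes of 5.28 and 4.68, SEs 0.72 and 0.68, adjusted p = 6.49e-04 and 8.62e-04), while the third propeptidase, ADAMTS3, was not (0.50, adjusted p = 0.194). At these levels of at most 0.820 CPM, both remained minor transcripts in hypoxia.

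ADAMTS10 and ADAMTS6, close relatives linked to fibrillin microfibrils, both increased. ADAMTS10 (chromosome 19, 8645124 to 8675620) went from 0.329, 0.564 and 0.452 CPM to 3.24, 2.87 and 2.58 CPM, a log2 change of 2.68 (SE 0.26, adjusted p = 1.63e-04). ADAMTS6 went from 4, 2 and 2 counts to 19, 18 and 57 counts, a log2 change of 2.81 (SE 0.39, adjusted p = 6.66e-04). ADAMTS13 (chromosome 9, 136279459 to 136324525), the protease that cleaves von Willebrand factor, was the most abundant ADAMTS in hypoxia per kilobase. It rose from 14.7, 17.8 and 10.5 CPM to 39.9, 37.8 and 40.8 CPM, a log2 change of 1.46 (SE 0.17, adjusted p = 3.61e-04). ADAMTS19 was called higher with a log2 change of 0.81 (adjusted p = 0.0417), a call lost without any single library other than normoxia replicate 2 and without any replicate number, where its adjusted p ranged from 0.0519 to 0.236. ADAMTS7 had a log2 change of 0.52 (adjusted p = 0.0724) that passed with the replicate block (adjusted p = 6.74e-04). It also passed with edgeR's exact test and with upper-quartile scaling (adjusted p = 0.0492 and 0.0199), and not with DESeq2 (0.0527). ADAMTS17, detected but under the filter, had 1, 5 and 0 counts in normoxia and 21, 20 and 23 in hypoxia, and it was called higher when genes under the filter were included (2.87, adjusted p = 0.00846).

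The proteoglycan-cleaving ADAMTSs had 4 tested members, of which 2 were lower and 0 higher (2 had an unadjusted p under 0.05). Of all tested genes, 29.1% were lower and 30.4% higher. ADAMTS20, which can cleave versican, fell from 5.40, 7.63 and 4.39 CPM to 2.40, 2.43 and 2.77 CPM, a log2 change of -1.19 (SE 0.23, adjusted p = 0.00276). ADAMTS1, a versican and aggrecan protease, had 34, 25 and 19 counts in normoxia and 2, 4 and 37 counts in hypoxia, the last in the deepest library. Scaled to library size, it was at 0.861, 0.672 and 0.614 CPM in normoxia and 0.0494, 0.109 and 0.405 CPM in hypoxia. Its log2 change was -1.68 (SE 0.57, adjusted p = 0.0342), and -3.15 without hypoxia replicate 3 (adjusted p = 0.00121). Without any of normoxia replicates 1 and 2 or hypoxia replicates 1 and 2 the adjusted p was between 0.0596 and 0.0950. It was 0.174 without replicate 1 and 0.132 without replicate 2 of both conditions. ADAMTS15 was low in replicate 3 of both conditions, where it had 5.88 CPM (normoxia) and 8.12 CPM (hypoxia) against 19.9 to 27.1 CPM elsewhere, and was not called (log2 change of -0.044, adjusted p = 0.950). ADAMTS4 was not called either (0.28, adjusted p = 0.631).

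The 2 abundant ADAMTS-like genes moved in opposite directions. ADAMTSL5 (chromosome 19, 1505017 to 1513188), a fibrillin-binding protein, fell from 27.7, 26.3 and 35.4 CPM to 8.50, 8.61 and 12.2 CPM, a log2 change of -1.60 (SE 0.18, adjusted p = 2.92e-04). ADAMTSL4, also a microfibril protein, rose from 17.2, 22.5 and 14.5 CPM to 30.9, 33.2 and 40.7 CPM, a log2 change of 0.95 (SE 0.17, adjusted p = 0.00234). In neither gene did the conditions overlap. ADAMTSL3 was at 9 to 58 counts and was not called (0.45, adjusted p = 0.321).

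The inhibitors TIMP1 and TIMP3 rose while TIMP2, the most abundant, did not pass the test. TIMP1 (chromosome X, 47441690 to 47446190), a secreted inhibitor of most soluble MMPs, went from 2.31, 3.57 and 2.65 CPM in normoxia to 9.51, 10.0 and 9.41 CPM in hypoxia, a log2 change of 1.76 (SE 0.18, adjusted p = 2.13e-04). TIMP3 (chromosome 22, 33196802 to 33259028), which binds to the matrix and also inhibits ADAM17 and several ADAMTSs, went from 0.228, 0.403 and 0.969 CPM to 2.96, 2.73 and 2.51 CPM. Its log2 change was 2.39 (SE 0.43, adjusted p = 0.00223), and normoxia replicate 3 was again the library that stood apart. TIMP2 (chromosome 17, 76849059 to 76921472), which also takes part in the activation of MMP2 by MMP14, was at 85.3, 90.8 and 49.9 CPM in normoxia and 85.6, 84.1 and 87.3 CPM in hypoxia. The log2 change was 0.18 (SE 0.20, adjusted p = 0.447), and -0.045 without normoxia replicate 3 (adjusted p = 0.649). Per kilobase, TIMP2 was at 23.4 RPKM and TIMP1 at 10.5 RPKM in hypoxia, so the difference in level between them shrank from normoxia, where TIMP2 was at 20.6 RPKM and TIMP1 at 3.10 RPKM.

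**Figure D5:**
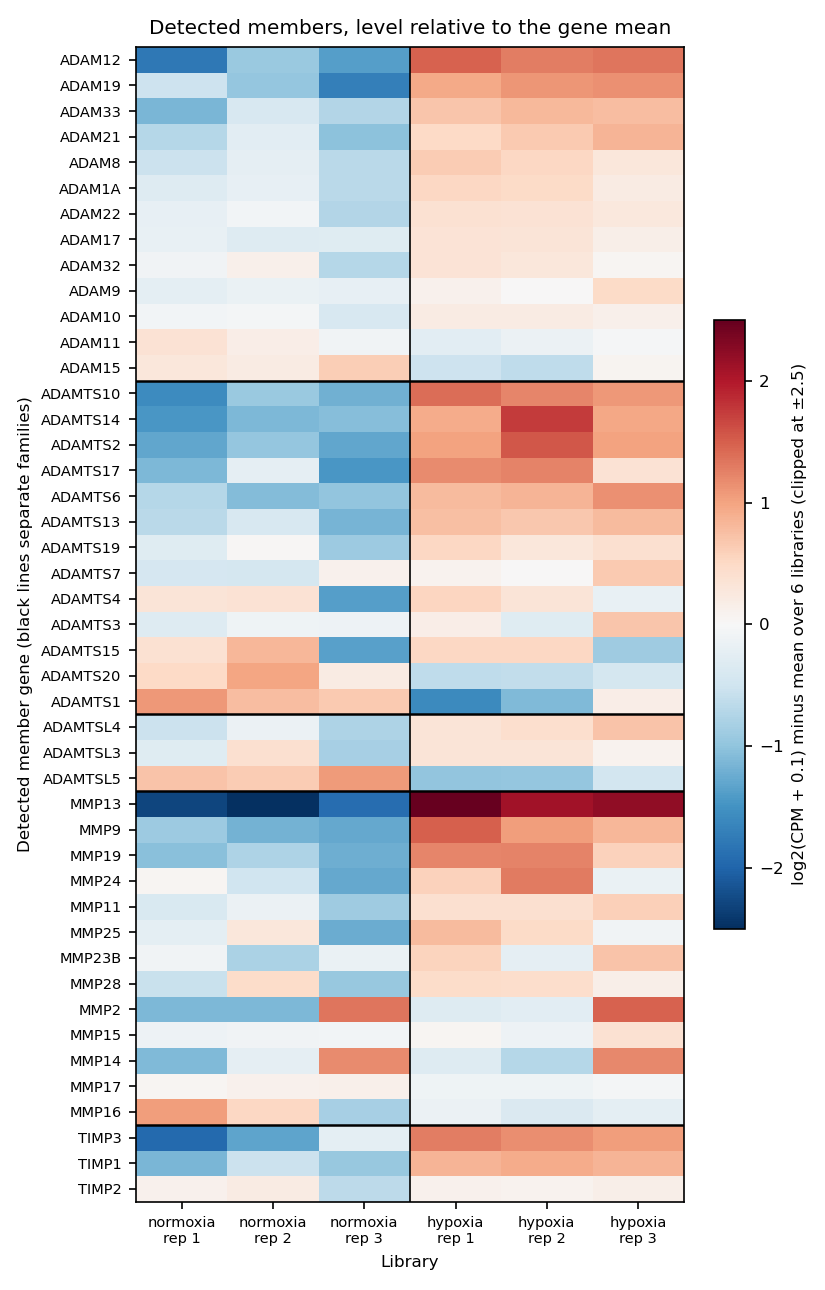
Level of the 45 detected members in each library, as log2(CPM + 0.1) minus the mean of the gene over the 6 libraries (red, above the mean; blue, below; clipped at 2.5); black horizontal lines separate the ADAM, ADAMTS, ADAMTSL, MMP and TIMP families. Most rows turn from blue in normoxia to red in hypoxia, and MMP14 and MMP2 are red in replicate 3 of both conditions.

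Start-site sequences were available for 44 of the 77 genes in the RefSeq promoter table (GRCh38.p14, 250 bases before to 50 bases after the start), too few for a comparison of shares between groups of members. The core motif of hypoxia-inducible factor was searched as ACGTG or GCGTG on both strands. Of all 35116 windows of this length, 48.4% hold it, and 21 of the 44 members do (47.7%), so a match is common. Members called higher with an ACGTG on some strand before the start were ADAM10, ADAM12, ADAM17, ADAMTS6 and TIMP1, and the ACGTG match nearest to the start of each, on whichever strand, is shown with 9 bases on each side, in the direction of the gene, as examples from called genes. ACGTG also stood before the start of ADAMTS3 and MMP14, which were not called, and of ADAM30, ADAMTS17, MMP10, MMP20, MMP21 and MMP27, which were not tested. The share of all windows with ACGTG alone before the start was not computed, so these lists have no background. Capitals mark the motif as read on that strand, where CACGT is ACGTG on the other.
ADAM10: ccgcgcgtcACGTGgtgaggaag
ADAM12: ccactgagcCACGTctgagccgc
ADAM17: cccagctagACGTGacgggcggg
ADAMTS6: tccccctccACGTGacgacccag
TIMP1: tagtgactgACGTGgaggtgggg
These lie at chr15:58749836-58749858, chr10:126388638-126388660, chr2:9555946-9555968 and chr5:65481969-65481991 on the minus strand and at chrX:47582196-47582218 on the plus strand. The motif begins 142, 174, 129, 62 and 231 bases before the start, in that order. In ADAM10 and ADAMTS6 the match overlaps a CACGT that begins 1 base earlier. Such matches describe the sequence and do not show that a factor binds there.

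Partners of these proteases were read from a list of 48 genes chosen for their role: activating convertases, further inhibitors, ADAM10 and ADAM17 partners, an endocytic receptor, relatives and substrates. Of the 37 tested, 18 were higher and 8 lower in hypoxia, beside 30.4% and 29.1% of all genes. PCSK5, SPOCK1 and FBN2 passed the filter with no normoxia library over it and so could come out only as higher. Of the 34 with all 6 libraries over it, 15 were higher and 8 lower, with a median of 0.15, where 26.8% and 31.7% of all genes over it in every library were. Blocking on the replicate number gave 20 higher and 9 lower, where 71.8% of all tested genes were called in either direction. Of the 4 proprotein convertases, which cut the propeptides of many metalloproteinases, 3 were called higher and 1 lower, beside 30.4% and 29.1% of all genes. PCSK6 rose from 2.38 ± 0.806 to 11.4 ± 1.13 CPM (SD, n = 3), a log2 change of 2.25 (adjusted p = 2.45e-04). FURIN rose by 0.39 on the log2 scale (adjusted p = 0.0159, and between 0.0600 and 0.146 without normoxia replicate 2, hypoxia replicate 1, or replicate 1 or 2 of both conditions), and PCSK7 fell by 0.80 (adjusted p = 0.00170). PCSK5 was called higher at a very low level (1.39, adjusted p = 0.0422), a call lost without any single library other than hypoxia replicate 3 and in DESeq2 (adjusted p = 0.0649).

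RECK, a membrane-bound inhibitor of MMPs and ADAMs, and the plasma inhibitor A2M were at or near 0, with a mean of 0.00365 CPM for RECK in hypoxia and 0 CPM in normoxia. SPOCK1 and SPOCK2, proteoglycans of a family in which some members inhibit membrane-type MMPs, rose by 4.05 and 1.28 (adjusted p = 0.00197 and 0.00482). Whether either acts as an inhibitor was not tested. BSG, which induces MMPs in neighboring cells, rose from 356 ± 10.9 to 463 ± 57.6 CPM (log2 change of 0.38, adjusted p = 0.0114). Without replicate 1 of both conditions SPOCK2 and BSG were not called (adjusted p = 0.0646 and 0.0896). LRP1, the receptor that clears several MMPs and TIMPs from the surroundings, rose from 7.10 ± 3.26 to 57.0 ± 6.98 CPM, a log2 change of 2.99 (adjusted p = 2.29e-04), the second largest of the list after SPOCK1.

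Among 3 iRhom partners of ADAM17, 1 was lower, and among 6 tetraspanin partners of ADAM10, 1 was higher and 2 were lower. The shares over all tested genes were 30.4% higher and 29.1% lower. The iRhoms RHBDF1 and RHBDF2 were not called (log2 changes of 0.10 and 0.08, adjusted p = 0.486 and 0.541), and FRMD8, which stabilizes them, was lower (-0.37, adjusted p = 0.0179). Of the 6 tetraspanins that pair with ADAM10, TSPAN5 rose from 3.55 ± 0.0698 to 9.05 ± 0.570 CPM (log2 change of 1.35, adjusted p = 1.62e-04). TSPAN14 and TSPAN17 fell by 0.30 and 0.63 (adjusted p = 0.0109 and 0.00315), and the other 3 were not called. The call of TSPAN14 was lost with upper-quartile scaling (-0.14, adjusted p = 0.141) and without replicate 1 or 2 of both conditions (adjusted p = 0.116 and 0.109).

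Of 14 genes for proteins shed by ADAM10 or ADAM17, 8 were higher and 6 not called, where 30.4% of all tested genes were higher and 29.1% lower. Blocking on the replicate number gave 10 higher and 1 lower, and in that fit 71.8% of all tested genes were called in either direction. The additions were CD44 (0.50, adjusted p = 1.10e-04), CDH1 (0.20, adjusted p = 0.00965) and EREG (-0.39, adjusted p = 0.0334). TGFA, a ligand of the EGF receptor released by ADAM17, rose from 16.7 ± 2.84 to 77.0 ± 4.30 CPM (log2 change of 2.20, adjusted p = 3.94e-05). HBEGF, BTC, TNF, IL6R and L1CAM rose by 1.17, 1.51, 1.09, 1.55 and 2.20 (adjusted p = 0.00126, 0.0172, 0.00442, 1.26e-04 and 8.25e-04), and BTC lost its call without hypoxia replicate 1 or 2 (adjusted p = 0.0525 and 0.0592) and without replicate 1 or 2 of both conditions (0.107 and 0.0828). Without replicate 1 of both conditions TNF was not called either (adjusted p = 0.0697). APP and NOTCH1 were also higher, by 0.88 and 0.38 (adjusted p = 1.13e-04 and 0.0211). AREG, EREG, EGF and NOTCH2 were not called without the block (-0.15, -0.49, -0.13 and -0.11, adjusted p = 0.728, 0.394, 0.543 and 0.241). The matrix substrates had 4 tested members with 1 higher and 3 lower, beside 30.4% and 29.1% of all tested genes. VCAN, a proteoglycan cleaved by several ADAMTSs, and LTBP1, a microfibril protein, fell by 1.41 and 1.29 (adjusted p = 1.57e-04 and 7.44e-05). FBN1 fell by 1.22 and FBN2 rose by 2.27 (adjusted p = 0.0179 and 0.00103), both at levels under 1 CPM, and the call of FBN1 was lost without normoxia replicate 3, hypoxia replicate 1, hypoxia replicate 2 or replicate 1 of both conditions (adjusted p between 0.0510 and 0.0916). PAPLN, a relative of the ADAMTSL genes, rose by 1.65 (adjusted p = 0.00120), from 1.28 ± 0.410 to 4.04 ± 0.509 CPM. THSD4, the other tested relative in the list, fell by 0.53 (adjusted p = 0.00548), from 168 ± 23.0 to 117 ± 10.0 CPM.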

How the data were processed

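The authors sequenced stranded mRNA libraries, removed adapters with Skewer, aligned reads to hg19 with STAR 2.5.2a and summed them over RefSeq genes in featureCounts 1.5.1 (versions from the submitters' processing notes). They deposited raw counts, with 1 file per library. The strand and multi-mapping settings are not given in the sources used here. Members were taken by symbol, and the members and gene lists were chosen with earlier results of these data known.

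Counts were tested in R 4.3.3 with edgeR 4.0.16 (quasi-likelihood test, TMM normalization, condition as the only term, all 6 libraries). The filterByExpr filter required 10 counts in enough libraries and 15 in total, and p-values were Benjamini-Hochberg adjusted over 15657 genes with a threshold of 0.05. The exact test of edgeR, which the study applied to hypoxia and normoxia as paired samples, and DESeq2 1.42.0 were alternatives, as were RLE and upper-quartile scaling, no filter, and fits without each library or replicate number. CPM values are TMM-normalized, and RPKM divides them by the exon length in the files. Counting intervals are exact binomial intervals. All detected members could be named, and full values were given for those changed by at least 1 (log2), the TIMPs, ADAM10, ADAM17 and MMP14. Members named below the detection threshold, MMP16, MMP17, ADAM9, ADAM15 and other members with values by library, and list genes outside the rule were picked after their values were seen.

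Same-numbered libraries deviated together from their condition means (correlations across genes of 0.338, 0.422 and 0.575 for numbers 1, 2 and 3), so the replicate number was also fitted as a block. In simulated counts over 15602 genes for this comparison, the test recovered 93.9% of 99 genes changed by 1 and 100% of 98 changed by 2 (log2). Of its calls, 4.5% were unchanged genes. The simulation gave every gene the same coefficient of variation of 0.14 between libraries, no effect of the replicate number and few changed genes. These rates therefore do not carry over to genes that vary more or follow the replicate number. Plots used Python 3.11.15 and matplotlib 3.10.9.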

Additional observations from a re-analysis of the deposited data

How the results depend on the processing

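All 27 called members kept their direction under every alternative run, and with edgeR's exact test, DESeq2, RLE or upper-quartile scaling, no filter or the replicate block all 27 also kept their call. The members called lower numbered 2 to 4 without a hypoxia library, 3 to 6 without a normoxia library and 2 to 7 without a replicate number, with 2 without replicate 1 and 7 without replicate 3 of both conditions. The members called higher numbered 18 to 27 over these fits. Without a replicate number, all genes called higher numbered 2648 to 5751 and lower 2191 to 5506, and list genes 11 to 21 higher and 4 to 10 lower. At an adjusted p under 0.01, 2 members and 5 list genes were lower. Upper-quartile scaling moved the median change (log2) over all genes to 0.19 from 0.03, and the share of calls that were higher from 51.1% to 64.5% (members, from 85.2% to 87.1%).

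Some genes that were not called changed sign. ADAMTS15 was at 0.11 with upper-quartile scaling and 0.069 with the replicate block. It ranged from -0.46 to 0.39 without a normoxia library, -0.26 to 0.30 without a hypoxia library and -0.15 to 0.20 without a replicate number. In the same order, MMP14 ranged from -0.29 to 1.21, -0.86 to 0.50 and -0.038 to 0.28. TIMP2 ranged from -0.045 to 0.32 without a normoxia library and -0.048 to 0.35 without a replicate number, and ADAMTS4 from -0.13 to 0.54 without a normoxia library. RHBDF1 ranged from -0.042 to 0.18 and RHBDF2 from -0.0097 to 0.17 without 1 library. The cause was not tested.

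The replicate block, which uses the pairing by number, changed no other call among the members than those given above. Members under about 10 counts per library are limited by depth.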
